A study of Mus musculus with 6 samples.

Results

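The 39 voltage-gated calcium and sodium channel genes described here were taken from a gene count table of mouse hippocampus by their symbols. The rule takes every symbol that starts with Cacna, the genes Cacnb1 to Cacnb4 and Cacng1 to Cacng8, and the Scn genes whose symbol ends in a number and the letter a or b. They are 39 of 24421 rows, 26 for calcium channels and 13 for sodium channels. Of these, 34 had enough reads to be tested, among 14916 tested genes. The other 5, Cacna1f, Cacng1, Scn4a, Scn10a and Scn11a, had at most 16 reads in any library.

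RNA was sequenced from the hippocampus of 3 CTCF conditional knockout (cKO) mice and 3 wild type mice, all on the strain the labels call C57/Bl. The labels name no Cre line, promoter, age or treatment, so the cells in which Ctcf was deleted are not known here. The series calls the 3 mice of each genotype biological replicates. The comparison asks how losing CTCF, a DNA-binding factor that anchors chromatin loops, alters transcription in the hippocampus.

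Libraries held 14974750 to 23220455 counted reads. Ctcf itself had 24.1, 34.5 and 35.8 CPM (reads scaled to a common library size by TMM) in cKO replicates 1 to 3, against 64.3, 65.2 and 70.3 CPM in wild type replicates 1 to 3. Its log2 fold change was -1.08 (edgeR adjusted p = 0.0264). All 9 hippocampal neuron markers on the list used here, among them Neurod6, Prox1 and Camk2a, were detected in every library, and they summed to 3198 to 4499 CPM in cKO and 2744 to 3631 CPM in wild type libraries. Of the 9, 8 had positive log2 fold changes (median of the list 0.30), up to 1.17 for Fibcd1 and 1.36 for Spink8 (edgeR adjusted p = 0.142 and 0.175). The other, Wfs1, was the 1 that passed the test and was lower in cKO (log2 fold change -1.16, edgeR adjusted p = 0.00775). DESeq2 called 2 of the list higher and 1 lower. All 10 striatal neuron markers were also detected in every library. They summed to 218, 483 and 298 CPM in cKO replicates 1 to 3 and to 756, 3598 and 1512 CPM in wild type replicates 1 to 3, so that wild type replicate 2 stood apart. The 10 had negative log2 fold changes from -3.64 to -1.74, with non-overlapping groups in all 10, and none passed edgeR's test (all 10 had an unadjusted p below 0.05, and 9 passed with DESeq2).

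A voltage-gated calcium or sodium channel is built around a single large pore-forming protein, the alpha subunit, which opens when the membrane depolarises. Auxiliary subunits carry it to the membrane and tune its opening. In hippocampal neurons sodium channels at the axon initial segment and along the axon produce the action potential, calcium channels of the Cav2 family at the terminals trigger transmitter release, L-type Cav1 channels link activity to gene expression, and T-type Cav3 channels open near rest and shape burst firing.

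Genes for the pores of calcium channels were the members with the most separated genotypes. Of 9 tested, 8 had positive log2 fold changes and 1, Cacna1i, a negative one, and their median was 0.45. Over all 14916 tested genes 49.2% had positive values and the median was -0.00. The 3 cKO libraries lay entirely above the 3 wild type libraries for 6 of the 9 and entirely below for 1. Over all tested genes 27.0% had non-overlapping groups, 14.6% with cKO above. Over all 34 tested members the share was 38.2%, 10 with cKO above and 3 below, and 61.8% had positive log2 fold changes. Among the 15 tested auxiliary calcium channel genes 13.3% had non-overlapping groups. Only Cacna1d passed edgeR's quasi-likelihood test at an adjusted p of 0.05, and it was the 1 member of 34 called, in a comparison in which 1.51% of tested genes were called with 1.05% higher and 0.463% lower in cKO. Of the 34, 10 had an unadjusted p below 0.05 with a higher value in cKO and 2 with a lower one, against 19.9% of all tested genes (11.1% higher, 8.81% lower). The 10 include Cacng6, which passed the filter on low counts through the cKO libraries alone, so its direction was built in. The 10 members with cKO above also include it. The authors' deposited table put 7 members below 0.05, 5 higher and 2 lower, where it did so for 4.06% of its genes (2.41% higher, 1.65% lower). DESeq2 on the same counts also called 5 higher and 2 lower, against 5.81% of its genes (3.42% higher, 2.39% lower). In tissue samples fewer cells of a type and less RNA per cell cannot be told apart, which holds for every level below.

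**Figure D1:**
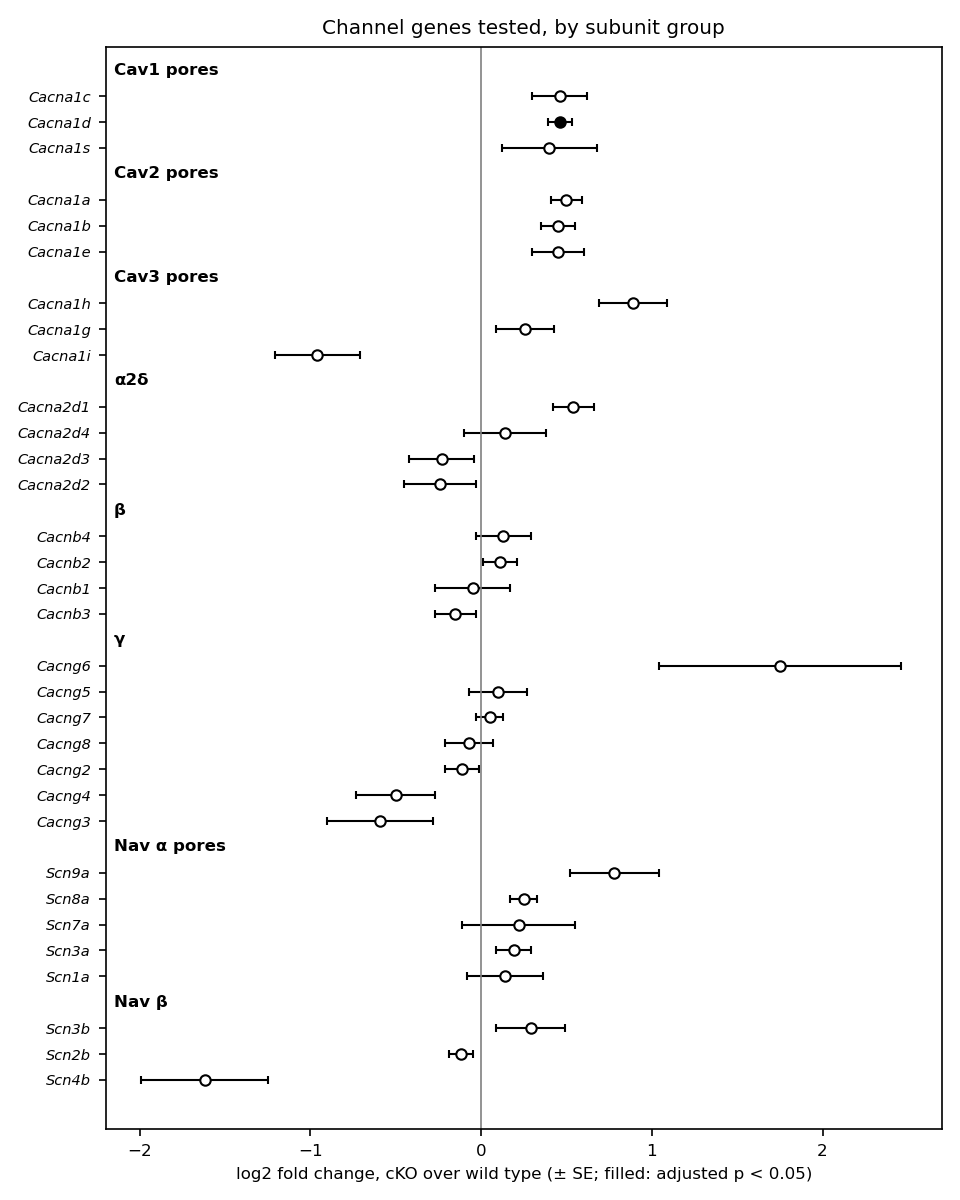
Log2 fold change of cKO over wild type (x axis) for 32 tested channel genes, ordered by subunit group down the page, with bars for the standard error from edgeR. The filled point is Cacna1d, the 1 gene with adjusted p below 0.05. Pores of the Cav1 and Cav2 families lie between 0.40 and 0.50, while Cacna1h (0.89) and Cacna1i (-0.96) of the Cav3 family lie on opposite sides of 0.

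Among L-type pores, Cacna1d encodes a channel that opens at relatively negative voltages and supports pacemaking. It had 66.2, 61.4 and 63.0 CPM in cKO replicates 1 to 3, against 47.9, 44.9 and 45.3 CPM in wild type replicates 1 to 3. The groups were tight and well apart. The gene rose by 0.46 on the log2 scale (SE 0.07, 1.38-fold), with an edgeR adjusted p of 0.0366, and was higher in 3 of 3 cKO libraries than the wild type mean. The authors' deposited table gave Cacna1d an adjusted p of 0.000263. The edgeR call was lost without any 1 library, with an adjusted p of 0.0543 when wild type replicate 2 was dropped, 0.165 when cKO replicate 1 was, and values between these for the others, while the log2 fold change stayed between 0.43 and 0.49. Cacna1d lies on the minus strand of chromosome 14 (30039941 to 30491156, GRCm38.p6) and shares 589 bases of exon with Chdh on the plus strand. Chdh had a log2 fold change of -0.36 (edgeR adjusted p = 0.45), and no source at hand states whether counting used strand, so the assignment of reads in the shared bases is uncertain.

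Cacna1c encodes the main L-type pore of heart and brain and had the highest level of its family. It had 218, 185 and 184 CPM in cKO replicates 1 to 3, against 149, 108 and 168 CPM in wild type replicates 1 to 3. Every cKO library was above every wild type library, but wild type replicate 2 lay far below the other wild type libraries. Its log2 fold change of 0.46 (SE 0.16) did not pass (edgeR adjusted p = 0.178), and was 0.30 without wild type replicate 2. Per kilobase of exon Cacna1c made up 63.3 ± 1.58% of the Cav1 level in cKO and 62.8 ± 5.04% in wild type (SD, n = 3 each). The mix of Cav1 pores differed by less than the spread between libraries. Cacna1s, the skeletal muscle pore, had 1.81 ± 0.340 CPM in cKO and 1.37 ± 0.361 CPM in wild type (log2 fold change 0.40, edgeR adjusted p = 0.46). Cacna1f, the pore of retinal photoreceptors, was among the members too low to test.

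The 3 Cav2 pores, which serve transmitter release, had similar fold changes. Cacna1a, the P/Q-type pore, had 284, 277 and 231 CPM in cKO replicates 1 to 3, against 182, 193 and 185 CPM in wild type replicates 1 to 3. Cacna1b, the N-type pore, had 161, 149 and 133 CPM in cKO, against wild type levels of 119, 101 and 105 CPM. Cacna1e, the R-type pore, had 214, 243 and 161 CPM in cKO, against 143, 158 and 153 CPM in wild type replicates 1 to 3. For each of the 3 the lowest cKO library was replicate 3 and still lay above every wild type library. The edgeR adjusted p was 0.0508 for Cacna1a (log2 fold change 0.50, SE 0.09), 0.0761 for Cacna1b (0.45, SE 0.10) and 0.162 for Cacna1e (0.45, SE 0.15), so none passed. The authors' deposited table gave adjusted p of 0.000731, 0.00811 and 0.0988 for the same genes. Without cKO replicate 3, its lowest cKO library, Cacna1a passed (edgeR adjusted p = 0.0493). With any other single library left out it did not pass (edgeR adjusted p from 0.0636 to 0.208).

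Levels within the Cav2 family kept the same order in both genotypes. Per kilobase of exon Cacna1a stood at 23.1 ± 2.52 RPKM in cKO and 16.4 ± 0.466 RPKM in wild type, Cacna1b at 14.8 ± 1.43 and 10.9 ± 0.936, and Cacna1e at 8.16 ± 1.66 and 5.99 ± 0.297 (SD, n = 3 each). Cacna1a supplied 50.2 ± 0.551% of the family's level per length in cKO and 49.3 ± 1.58% in wild type, a difference within the spread.

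**Figure D2:**
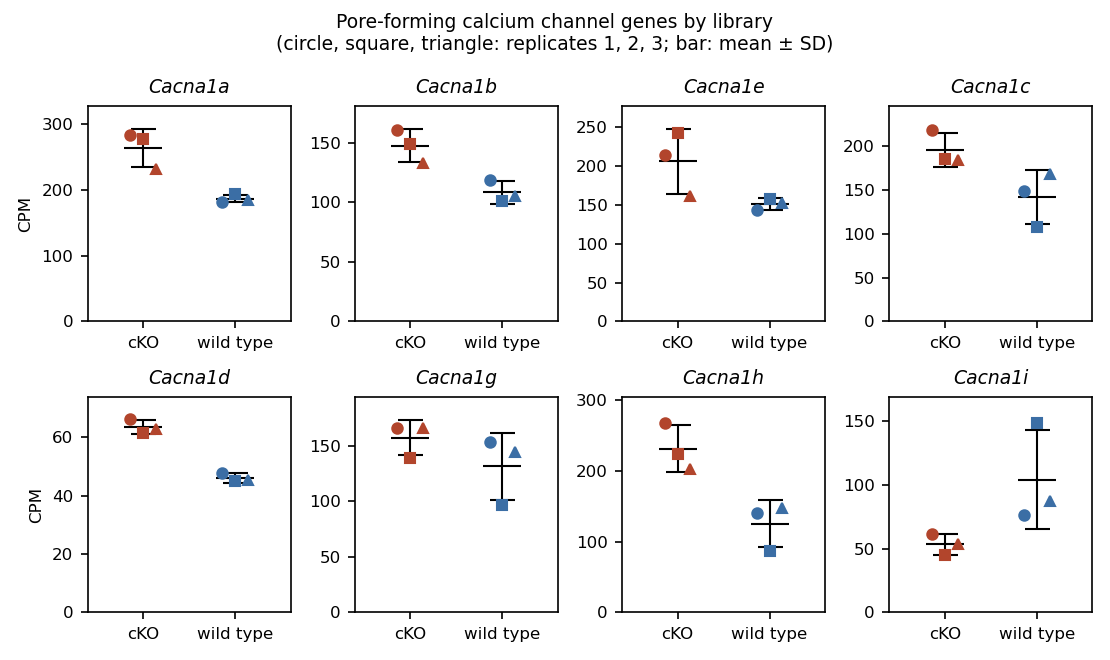
CPM of 8 pore-forming calcium channel genes in each library (y axes from 0), with cKO on the left and wild type on the right of each panel; points are replicates and bars the mean ± SD. Cacna1a, Cacna1b, Cacna1e, Cacna1c, Cacna1d and Cacna1h have all cKO points above all wild type points, Cacna1i has them below, and Cacna1g overlaps.

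The T-type pores had values in both directions, and none passed the test. Cacna1h, which in the hippocampus and thalamus contributes low-voltage calcium current, had 268, 224 and 202 CPM in cKO replicates 1 to 3, against 141, 86.8 and 147 CPM in wild type replicates 1 to 3. Cacna1i, a T-type pore with slow kinetics, had 61.3, 45.0 and 54.0 CPM in cKO, against 76.5, 149 and 87.5 CPM in wild type replicates 1 to 3. The groups were separate for both genes, in opposite directions, and wild type replicate 2 was the extreme library for both. The log2 fold change was 0.89 for Cacna1h (SE 0.20, edgeR adjusted p = 0.0833) and -0.96 for Cacna1i (SE 0.25, edgeR adjusted p = 0.109), and neither passed. Both were below the threshold in the authors' deposited table (adjusted p = 0.00125 and 0.00433). Without wild type replicate 2 the log2 fold changes were 0.68 and -0.62 (edgeR adjusted p = 0.0534 and 0.0728). Without that library and cKO replicate 1, the highest and lowest in striatal markers, Cacna1h passed (0.56, edgeR adjusted p = 0.0496) and Cacna1i did not (-0.73, 0.054).

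As a share of the Cav3 level per kilobase of exon, Cacna1h made up 54.8, 55.6 and 48.7% in cKO replicates 1 to 3, against 38.8, 26.5 and 39.4% in wild type replicates 1 to 3. Cacna1i made up 12.4, 11.1 and 12.9% in cKO, against 20.8, 45.1 and 23.3% in wild type replicates 1 to 3. Neither share overlapped between genotypes. These shares restate the levels given above and are not separate results. Cacna1g, the T-type pore of thalamic burst firing, had 166, 139 and 166 CPM in cKO, against 153, 96.4 and 144 CPM in wild type replicates 1 to 3, with overlapping groups (log2 fold change 0.26, edgeR adjusted p = 0.437). Without wild type replicate 2 the value was 0.08.

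The alpha2delta subunits are extracellular proteins that raise the number of channels at the membrane, and Cacna2d1 and Cacna2d2 encode binding sites of gabapentin. Cacna2d1 had 148, 151 and 146 CPM in cKO replicates 1 to 3, against 98.1, 87.6 and 121 CPM in wild type replicates 1 to 3. The cKO libraries were nearly equal and all above wild type. Its log2 fold change of 0.54 (SE 0.12) missed the threshold with edgeR (adjusted p = 0.0749) and was below it in the authors' deposited table (adjusted p = 0.00452). Cacna2d3 had 97.9, 110.4 and 80.7 CPM in cKO, against 89.2, 145 and 105 CPM in wild type replicates 1 to 3, with overlapping groups (log2 fold change -0.23, edgeR adjusted p = 0.537, and -0.01 without wild type replicate 2). Cacna2d1 supplied 40.2, 38.6 and 37.1% of the family's level per length in cKO replicates 1 to 3, against 28.0, 21.7 and 32.2% in wild type replicates 1 to 3. Those shares, which restate the same counts, did not overlap. Cacna2d2 had 43.7, 45.9 and 76.7 CPM in cKO, against 72.4, 65.6 and 58.7 CPM in wild type replicates 1 to 3, so its cKO replicate 3 stood apart from the other cKO libraries. The log2 fold change was -0.24, and -0.55 without that library. Cacna2d4 lies within a gene pair with Lrtm2 on the opposite strand, which had 14510 reads in all against its own 955, although the annotation used here gives them no shared exon bases.

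Genes that differ in this way can be set beside the DNA before their start sites, since the study removes a factor that binds DNA. RefSeq windows of 250 bases before and 50 bases after a start site were on hand for 29 of the 39 members (39 windows, GRCm38.p6). A core pattern of the CTCF binding motif, in which some positions may hold any base, was searched on both strands. It was found in 1 of the 39 member windows (2.56%) and in 2.43% of all 32851 windows. The match was in 1 of 2 windows of Cacnb1, 95 bases before that window's start site. Its letters stand in capitals in the Cacnb1 stretch printed here. Printed with it are the bases before a start site of Cacna1d, of Cacna2d1 and of Scn4b. Scn4b is the sodium channel gene with the largest negative fold change among members. By RefSeq gene bounds the Cacna1d, Cacna2d1 and Cacnb1 stretches lie inside their genes, before internal start sites. The Scn4b stretch lies just before its gene. Each stretch is written in the direction of transcription. The Cacna1d stretch is the one of its 2 windows with more CpG dinucleotides (50 in the 250 bases, 86.4% G or C). The stretches are chr14:30353487-30353736 on the minus strand for Cacna1d, chr5:15934441-15934690 on the plus strand for Cacna2d1, chr9:45138374-45138623 on the plus strand for Scn4b and chr11:98018373-98018622 on the minus strand for Cacnb1.
Cacna1d: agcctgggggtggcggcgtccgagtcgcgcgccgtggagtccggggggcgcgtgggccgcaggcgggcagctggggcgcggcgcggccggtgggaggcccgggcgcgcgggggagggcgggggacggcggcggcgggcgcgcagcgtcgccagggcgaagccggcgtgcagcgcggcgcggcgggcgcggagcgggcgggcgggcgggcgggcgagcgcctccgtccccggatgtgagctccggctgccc
Cacna2d1: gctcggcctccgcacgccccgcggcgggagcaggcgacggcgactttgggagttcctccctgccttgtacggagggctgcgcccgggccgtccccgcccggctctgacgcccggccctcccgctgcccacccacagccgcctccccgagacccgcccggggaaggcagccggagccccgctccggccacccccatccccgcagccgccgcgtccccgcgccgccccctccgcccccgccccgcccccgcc
Scn4b: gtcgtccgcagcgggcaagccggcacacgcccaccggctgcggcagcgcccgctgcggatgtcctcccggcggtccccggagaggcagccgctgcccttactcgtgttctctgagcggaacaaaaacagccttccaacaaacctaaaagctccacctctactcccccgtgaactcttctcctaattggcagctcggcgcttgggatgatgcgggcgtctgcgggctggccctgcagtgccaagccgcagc
Cacnb1: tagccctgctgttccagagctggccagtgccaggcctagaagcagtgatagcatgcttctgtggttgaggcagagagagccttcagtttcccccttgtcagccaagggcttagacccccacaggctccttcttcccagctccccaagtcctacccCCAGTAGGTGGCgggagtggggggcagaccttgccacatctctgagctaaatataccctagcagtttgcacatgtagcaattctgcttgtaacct
The first 3 stretches held 50, 36 and 23 CpG dinucleotides and no match, and the Cacnb1 stretch held 1 CpG. The median window held 59.7% G or C among members and 52.7% among all windows. A match is a description of letters, and no binding was measured in these samples.

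The beta subunits are cytoplasmic proteins that bind the pore and bring it to the membrane, and no member of this group separated the genotypes. Cacnb3, the most abundant, had 217, 185 and 165 CPM in cKO replicates 1 to 3, against 219, 223 and 187 CPM in wild type replicates 1 to 3 (log2 fold change -0.15, SE 0.12, edgeR adjusted p = 0.524, and -0.06 without cKO replicate 3). Cacnb2 had 69.7, 72.3 and 73.3 CPM in cKO, against 70.3, 57.4 and 71.2 CPM in wild type replicates 1 to 3 (log2 fold change 0.11, SE 0.10, edgeR adjusted p = 0.546, and 0.02 without wild type replicate 2). Cacnb1, the gene with the motif match, had 163, 144 and 111 CPM in cKO, against 116, 195 and 123 CPM in wild type replicates 1 to 3. Its log2 fold change was -0.05 (SE 0.22), and 0.22 without wild type replicate 2. Cacnb4 had 148 ± 2.26 CPM in cKO and 134 ± 30.8 CPM in wild type. The order per length, Cacnb3, Cacnb1, Cacnb4 and Cacnb2, was the same in both genotypes, from 47.1 ± 6.51 to 5.42 ± 0.140 RPKM in cKO and from 52.3 ± 4.98 to 5.01 ± 0.586 RPKM in wild type.

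Most genes of the gamma group serve AMPA-type glutamate receptors rather than calcium channels: Cacng2, Cacng3, Cacng4, Cacng5, Cacng7 and Cacng8 encode TARPs, proteins that traffic and modulate those receptors. None passed the test. Of 7 tested, 3 had a log2 fold change above 0 and 4 below, and the median was -0.07. Cacng7, the highest per length, had 88.8, 86.6 and 98.3 CPM in cKO replicates 1 to 3, against 89.7, 84.5 and 90.7 CPM in wild type replicates 1 to 3 (log2 fold change 0.05, SE 0.08). Cacng8, a TARP abundant in hippocampus, had a log2 fold change of -0.07 (SE 0.14), and its level per length, 32.4 ± 5.48 RPKM in cKO and 34.0 ± 3.97 RPKM in wild type, did not differ from that of Cacng7 beyond the spread. Cacng4 had 12.3, 16.7 and 13.3 CPM in cKO, against 14.4, 26.4 and 18.9 CPM in wild type replicates 1 to 3 (log2 fold change -0.50, edgeR adjusted p = 0.275, and -0.25 without wild type replicate 2). Cacng3 had 57.6, 45.1 and 40.2 CPM in cKO, against 47.1, 109.7 and 58.8 CPM in wild type replicates 1 to 3. A log2 fold change of -0.59 was computed for it, and -0.16 without wild type replicate 2. For both genes that library was the highest and the groups overlapped. Cacng6, related to the muscle calcium channel subunit Cacng1, had only 18, 10 and 16 reads in cKO replicates 1 to 3 and 3, 0 and 9 reads in wild type replicates 1 to 3. It passed the filter on low counts through the cKO libraries alone, so a difference in that direction was built into its being tested (edgeR adjusted p = 0.236).

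**Figure D3:**
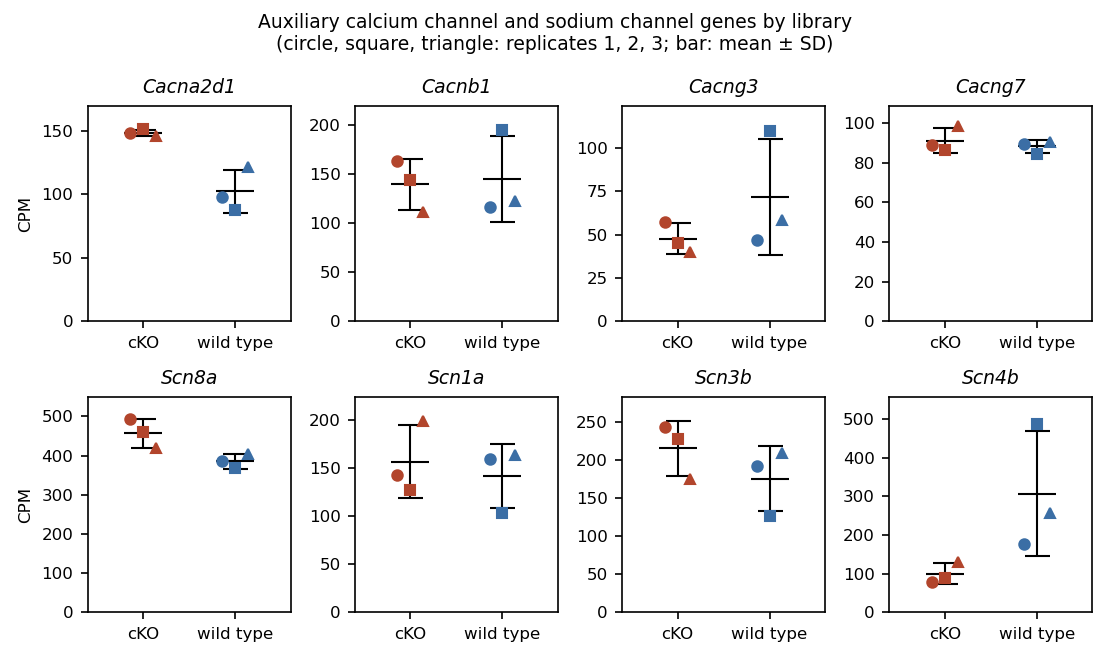
CPM of 4 auxiliary calcium channel genes and 4 sodium channel genes in each library (y axes from 0), with cKO on the left and wild type on the right; points are replicates and bars the mean ± SD. Cacna2d1 and Scn8a have all cKO points above wild type, Scn4b has them below, and the other 5 genes overlap.

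The abundant sodium channel pores had log2 fold changes between 0.01 and 0.25, counting Scn2a1 (0.01), which lies outside the symbol rule. Of 6 members tested, without Scn2a1, 5 had positive log2 fold changes and none passed the edgeR test. Of the 6, 2 had an unadjusted p below 0.05 and DESeq2 called 0. Scn8a, the pore concentrated at the axon initial segment and nodes, had 493, 459 and 419 CPM in cKO replicates 1 to 3, against 385, 367 and 404 CPM in wild type replicates 1 to 3. Its groups were separate but close (log2 fold change 0.25, SE 0.08, edgeR adjusted p = 0.18). Scn9a, a pore best known from sensory neurons, had 4.22, 3.63 and 4.97 CPM in cKO, against 3.37, 1.91 and 2.25 CPM in wild type replicates 1 to 3 (log2 fold change 0.78, SE 0.26, edgeR adjusted p = 0.166). It rests on 30 to 118 reads per library and shares 180 exon bases with Gm13629, a gene on the opposite strand with 585 reads in all against 368 for Scn9a, so its value is uncertain.

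Scn1a, the pore needed for fast firing of inhibitory neurons, had 143, 127 and 199 CPM in cKO replicates 1 to 3, against 159, 103 and 163 CPM in wild type replicates 1 to 3. Its log2 fold change of 0.14 changed sign without cKO replicate 3 (-0.07) or wild type replicate 2 (-0.04). Scn2a1, the older symbol of Scn2a, encodes the pore of excitatory axons. Its spelling puts it outside the symbol rule, and it is given for completeness. It had 189, 196 and 183 CPM in cKO, against 168, 210.0 and 188 CPM in wild type replicates 1 to 3 (log2 fold change 0.01, SE 0.09). Scn3a, prominent in the developing brain, had 46.1 ± 4.25 CPM in cKO and 40.4 ± 3.07 CPM in wild type, with overlapping groups. With Scn2a1 included, Scn8a supplied 46.4 ± 4.31% of the sodium pore level per length in cKO and 43.5 ± 0.336% in wild type, ahead of Scn2a1 (23.8 ± 1.54% and 26.5 ± 3.87%) and Scn1a (22.3 ± 4.85% and 22.5 ± 4.51%), which did not differ beyond their spread. Scn7a, which senses sodium concentration and is not gated by voltage, had a log2 fold change of 0.22 at 1.86 to 4.08 CPM.

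The 4 sodium channel beta subunits are single-pass membrane proteins of the immunoglobulin fold that modulate the pore and act in adhesion. Scn4b, which is linked to resurgent sodium current and is abundant in striatal neurons, had 79.4, 89.7 and 131 CPM in cKO replicates 1 to 3, against 177, 487 and 258 CPM in wild type replicates 1 to 3. The groups were separate, and wild type replicate 2 was the highest library. Its log2 fold change was -1.62 (SE 0.37, edgeR adjusted p = 0.0833), and the authors' deposited table gave an adjusted p of 0.0313. Without wild type replicate 2 it was -1.12 (edgeR adjusted p = 0.0637), and without that library and cKO replicate 1 it was -0.97 (0.116).

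Scn2b, whose product is linked to the pore by a disulfide bond, had 352, 329 and 347 CPM in cKO replicates 1 to 3, against 371, 393 and 355 CPM in wild type replicates 1 to 3. The cKO libraries lay just below wild type (log2 fold change -0.12, SE 0.07, edgeR adjusted p = 0.391). Scn3b had 244, 228 and 175 CPM in cKO, against 192, 127 and 209 CPM in wild type replicates 1 to 3 (log2 fold change 0.29, edgeR adjusted p = 0.454). It was 0.10 without wild type replicate 2, and 0.00 with cKO replicate 1 left out as well. The groups overlapped.

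Several members with negative values were highest in the wild type library with the most striatal marker RNA. Scn4b, Cacna1i, Cacng3 and Cacng4 all peaked in wild type replicate 2, where the 10 striatal markers summed to 3598 CPM. Within wild type, Scn4b and the summed markers had the same order, replicate 2 above replicate 3 above replicate 1. Within cKO they did not, since Scn4b was highest in replicate 3 and the markers in replicate 2. Choroid plexus markers also varied, with 609, 6937 and 3267 CPM in cKO replicates 1 to 3 and 6277, 12325 and 7722 CPM in wild type replicates 1 to 3. All 8 were detected in every library. The part of these other cells in the values of these 4 genes was not tested. Cacna1d had 44.9 to 47.9 CPM over the wild type libraries and was lowest in replicate 2. The part of these cells in its values was not tested either.

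Other marker lists also differed between libraries. The 5 thalamus markers summed to 972, 804 and 1103 CPM in cKO replicates 1 to 3 and to 1036, 371 and 1072 CPM in wild type replicates 1 to 3. Wild type replicate 2 was lowest in this list. Among tested calcium channel pores it was also the lowest library for Cacna1b, Cacna1c, Cacna1d, Cacna1g, Cacna1h and Cacna1s. It was not the lowest for Cacna1a, Cacna1e or Cacna1i. Other members lowest in that library included Cacna2d1, Scn8a, Scn1a and Scn3b. All 8 oligodendrocyte markers had negative log2 fold changes (median -0.35), 6 of them with an unadjusted p below 0.05, and their sum was 10966 to 14436 CPM in cKO and 14286 to 18991 CPM in wild type libraries. Of 7 inhibitory neuron markers 6 had negative values (median -0.32), 1 with an unadjusted p below 0.05, and the sum was 684 to 797 CPM in cKO and 803 to 1036 CPM in wild type libraries. No gene of these 3 lists passed edgeR's test, while DESeq2 called 2 oligodendrocyte markers and 1 inhibitory neuron marker lower. Their part in the channel gene values was not tested.

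**Figure D4:**
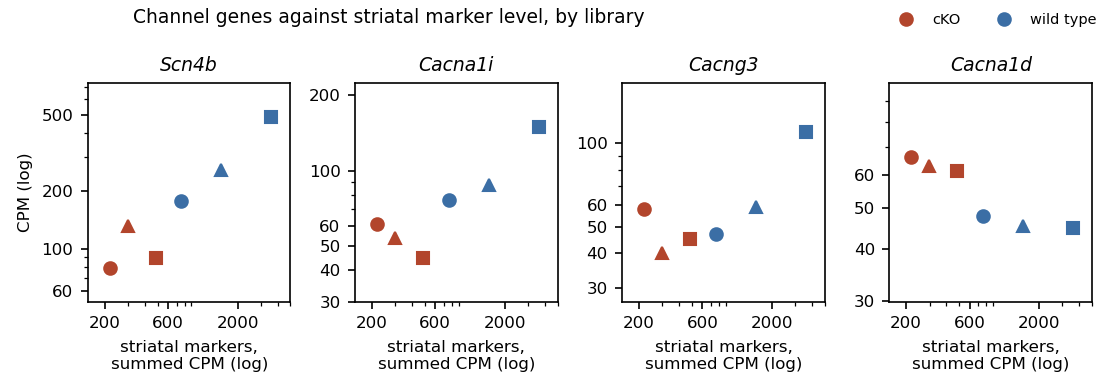
CPM of Scn4b, Cacna1i, Cacng3 and Cacna1d (y axes, log scale) against the summed CPM of 10 striatal marker genes (x axes, log scale) in the 3 cKO and 3 wild type libraries; each point is a library, with circle, square and triangle for replicates 1, 2 and 3. Wild type replicate 2, at 3598 CPM of striatal markers, is the highest point for Scn4b (487 CPM), Cacna1i (149 CPM) and Cacng3 (109.7 CPM), and the lowest for Cacna1d (44.9 CPM).

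Pore genes are long, and length went along with the fold change over all genes. The tested members spanned a median of 111 kb from first to last RefSeq base, against 24.1 kb for all tested genes. Above 300 kb, 6 of 7 members had positive log2 fold changes with a median of 0.46. The 7 are Cacna1a, Cacna1c, Cacna1d, Cacna1e, Cacna2d1, Cacna2d3 and Cacnb2. Of all 528 tested genes above 300 kb 68.6% were positive, with a median of 0.12, and edgeR called 6 higher and 2 lower. From 100 to 300 kb the median was 0.14 over 11 members and 0.05 over all 1706 genes, from 30 to 100 kb 0.07 over 8 members and 0.03 over all 4157, and from 10 to 30 kb -0.08 over 8 members and -0.01 over all 4732. Cacna1h spans 62.0 kb. The part of gene length in these values was not tested.

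**Figure D5:**
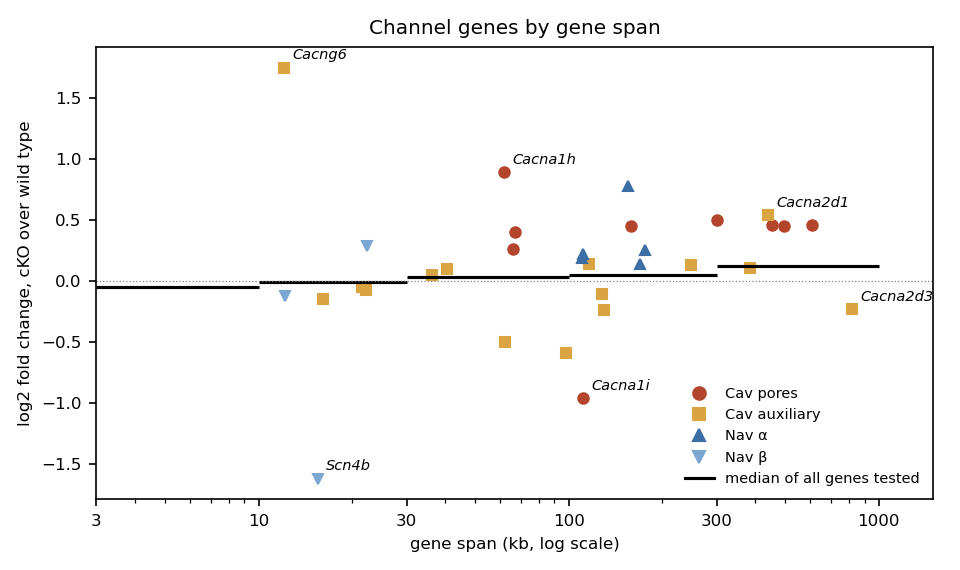
Log2 fold change of cKO over wild type (y axis) against gene span in kb (x axis, log scale) for 32 tested channel genes, coloured by subunit group, with the median of all tested genes per span bin. The 7 members above 300 kb have a median of 0.46 and the 528 genes of that bin one of 0.12.

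Several members lie near each other on a chromosome. Scn2b (chromosome 9, 45117876 to 45130070, GRCm38.p6) lies next to Scn4b (45138624 to 45154155), and the log2 fold changes were -0.12 and -1.62. On chromosome 2, Scn3a, Scn2a1, Scn1a, Scn9a and Scn7a lie in this order between 65457118 and 66784910, with other genes such as Csrnp3, Galnt3 and Ttc21b among them, and had log2 fold changes of 0.19, 0.01, 0.14, 0.78 and 0.22, none of which passed. The 111 nearest tested non-members, up to 2 on each side of each tested member and Scn2a1 among them, had a median of 0.00. Of these, 1 passed, where 1.51% of all tested genes did. That gene, Oscar beside Cacng6, had a log2 fold change of 1.37 (edgeR adjusted p = 0.0475).

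Genes whose products work with these channels were listed in 4 groups, 54 genes in all apart from Scn2a1. With edgeR 0 passed, while 9 had higher and 7 lower values at an unadjusted p below 0.05, where 11.1% and 8.81% of all tested genes did. DESeq2 called 5 higher and 1 lower, against 3.42% and 2.39% of its genes. The groups were separate for 31.5% of the 54, 11 with cKO above and 6 below, against 27.0% of all tested genes. The 7 lower values and the 6 below include Rem1, which passed the filter on low counts through the wild type libraries alone. The log2 fold changes of the 54 were positive for 34 and negative for 20, with a median of 0.06. Ryr2, the calcium release channel of the endoplasmic reticulum, had 349, 323 and 273 CPM in cKO replicates 1 to 3, against 213, 171 and 209 CPM in wild type replicates 1 to 3. Its groups were separate and its log2 fold change was 0.67 (SE 0.12, edgeR adjusted p = 0.0501). Nrcam, an adhesion molecule of the axon initial segment, had 317, 311 and 275 CPM in cKO, against 237, 226 and 229.7 CPM in wild type replicates 1 to 3 (log2 fold change 0.38, edgeR adjusted p = 0.0649).

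Other partners also had separate groups without passing, in both directions. Unc80 and Unc79, scaffolds of the sodium leak channel NALCN, had log2 fold changes of 0.42 and 0.26 (edgeR adjusted p = 0.0833 and 0.157). Rimbp2 and Erc1, which tether calcium channels at the active zone, had values of 0.49 and 0.31 (edgeR adjusted p = 0.11 and 0.121). Slc8a1, the sodium-calcium exchanger, had 266, 281 and 239 CPM in cKO replicates 1 to 3, against 176, 216 and 191 CPM in wild type replicates 1 to 3 (log2 fold change 0.43, edgeR adjusted p = 0.0891). Ank2, a membrane scaffold of axons, had 609 ± 8.13 CPM in cKO and 533 ± 15.4 CPM in wild type (SD, n = 3 each; log2 fold change 0.19, edgeR adjusted p = 0.177). The 6 partners with cKO below were Atp2a3, a calcium pump of the endoplasmic reticulum (log2 fold change -0.54, edgeR adjusted p = 0.125), Atp2b3, a calcium pump of the plasma membrane (-0.25, 0.151), Rem1 (-1.06, 0.197), Bzrap1 (-0.18, 0.207), Fgf11 (-0.38, 0.25) and Tpcn1 (-0.12, 0.442). These 6 were added after their values were seen. Rem1 had 0.434, 0.573 and 0.295 CPM in cKO, against 1.12, 0.892 and 0.665 CPM in wild type replicates 1 to 3. It passed the filter on low counts through the wild type libraries alone, so its direction was built in. By list, positive values numbered 12 of 14 sodium channel partners, where Scn2a1 (0.01), left out of the 54, is counted. They numbered 10 of 19 calcium channel partners, 5 of 7 genes of the NALCN group and 8 of 15 release channels, pumps and exchangers.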

How the data were processed

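RNA from 3 CTCF cKO and 3 wild type hippocampi was sequenced from Illumina TruSeq libraries, per the labels' protocols. Per the submitters' processing notes, reads were handled with HTSeq 0.6.1p1, DESeq2 1.6.3, TopHat2 2.0.10 and cutadapt on the mm10 build. Annotation and strand setting are not stated. The deposited table holds whole-number counts per gene and, as signal, the same counts divided by size factors by the authors. It also holds the authors' log2 fold changes and their p-values, raw and adjusted.

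Counts were tested with edgeR 4.0.16 (filterByExpr with a minimum count of 10, TMM scaling, quasi-likelihood test, Benjamini-Hochberg adjustment over 14916 genes, threshold 0.05). RPKM is CPM per kilobase of merged exons. In 3 simulated sets at the real depths, with 200 genes changed in each, and 14781 to 14798 tested, the test recovered 31.2% of 1.5-fold, 84.5% of 2-fold and 97.1% of 4-fold changes. Genes described library by library were the called members, the 2 with the smallest p and the highest level in each subunit group, and those the authors' table calls, with others added to complete families; 2 tested members enter the counts and medians and are otherwise not reported here. The members and lists were chosen with earlier results of these data known. DESeq2 1.42.0, limma 3.58.1 (voom), other scalings, filters and left-out libraries were tried as alternatives. No pair of libraries agreed within sampling noise. Of 24421 rows, 24300 matched RefSeq symbols and 4993 held no read.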

Additional observations from a re-analysis of the deposited data

How the results depend on the processing

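The number of members passing was 1 with limma-voom, with DESeq2 size factors or upper-quartile scaling, with a mean CPM filter and with the replicate block. It was 7 with DESeq2 (5 higher, 2 lower), 2 without the filter on low counts (both higher) and 6 at an adjusted p below 0.1 (5 higher, 1 lower). Leaving out 1 library gave 0 to 1, and 0 to 1 for those higher; the 1 was Cacna1a, with cKO replicate 3 dropped. Dropping both wild type replicate 2 and cKO replicate 1 left Cacna1h as the 1 called. Apart from DESeq2, the share of all tested genes passing in these settings is not given here. Cacna1h, 1 of the 6 at 0.1, ranked 546 by p among 14916 tested genes, so at least that many passed at 0.1. The median log2 fold change of tested members, 0.14, ranged from 0.05 to 0.23 when 1 library was left out and was 0.04 without wild type replicate 2 and cKO replicate 1. Of the partner lists, 6 passed with DESeq2, 1 without the low-count filter and 1 with the mean CPM filter. Without wild type replicate 2 the sign reversed for Cacna2d4 (-0.09), Cacnb1 (0.22), Cacng2 (0.00), Cacng5 (-0.08) and Scn1a (-0.04). Without that library and cKO replicate 1 it reversed for Cacna2d4 (-0.09), Cacnb1 (0.09), Cacng2 (0.00) and Cacng5 (-0.02). Without cKO replicate 3 it reversed for Cacnb1 (0.08), Cacng7 (-0.01), Cacng8 (0.06) and Scn1a (-0.07), and without wild type replicate 1 for Cacnb4 (-0.04) and Cacng8 (0.01). Over all these settings the log2 fold changes ranged from -0.09 to 0.37 for Cacna2d4, -0.19 to 0.22 for Cacnb1, -0.04 to 0.26 for Cacnb4, -0.17 to 0.00 for Cacng2, -0.08 to 0.20 for Cacng5, -0.01 to 0.08 for Cacng7, -0.23 to 0.06 for Cacng8 and -0.07 to 0.27 for Scn1a. The cause was not tested. Libraries with the same replicate number did not all deviate together (correlations 0.219, 0.425 and 0.0788), so the numbers were not taken as pairs; with the replicate block Cacna1d had an edgeR adjusted p of 0.0473. Ordering genes by the longest transcript in place of merged exons, chosen after seeing the data, put Cacng8 above Cacng7. With 3 libraries per genotype, the simulated data recovered 31.2% of 1.5-fold changes and 84.5% of 2-fold changes. Cacna1a, Cacna1d and Cacna2d1 had folds below 1.5, of 1.41, 1.38 and 1.45. The rates pool all changed genes and were not computed for these genes separately.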
